A study of Mus musculus with 35 samples.

Results

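The effect of losing both copies of Ezh2 in mouse long-term haematopoietic stem cells (LT-HSCs) was measured across a pair of genetic backgrounds, with and without the JAK2V617F allele. Members were chosen from the library titles. The 10 libraries titled Ezh2 -/- (called null here) were set against the 10 libraries with no Ezh2 in the title (called intact), out of 35 libraries in the series. The other 15 libraries, titled Ezh2 +/-, were left out.

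Every one of the 20 libraries carried SclCre, a Cre transgene named after Scl, so the intact libraries are Cre controls and not untouched wild-type cells. The intact libraries were 4 with SclCre alone (control) and 6 with SclCre and JAK2V617F. The null libraries were 4 with SclCre and Ezh2 -/-, and 6 with SclCre, JAK2V617F and Ezh2 -/-. Each library was made from 1000 sorted LT-HSCs with a low-input kit. The ages of the mice, the kind of JAK2V617F allele and whether each library came from its own mouse are not stated in the labels, so the p-values measure the spread between libraries, which may in part be technical. Sex and batch were balanced over the whole comparison, with 6 females, 4 males, 4 batch 1 and 6 batch 2 libraries on each side. They were not balanced inside a background. The control libraries were 4 females, the Ezh2 -/- libraries were 1 female and 3 males, the JAK2V617F libraries were 2 females and 4 males, and the JAK2V617F Ezh2 -/- libraries were 5 females and 1 male.

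Ezh2 is the main catalytic subunit of Polycomb repressive complex 2 (PRC2), which methylates lysine 27 of histone H3 and keeps many developmental and lineage genes silent. Ezh1 is a related and usually weaker methyltransferase that can take its place in the complex. JAK2V617F is an activating change in the kinase that relays erythropoietin and other cytokine signals to STAT proteins, and it is the most common driver of myeloproliferative neoplasms, in which loss of EZH2 function also occurs.

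Library totals ran from 20022714 to 48557175 counts, and batch 2 was deeper than batch 1. Defining LT-HSC genes were present in all 20 libraries. The receptor Kit had a median of 1060 CPM (read counts scaled to library size and TMM-normalised) in intact and 1090 CPM in null libraries, and the stem-cell transcription factor Hlf 379 and 338 CPM. Procr, Slamf1 and Mecom were detected throughout as well. Of genes expected to be low or absent in these cells, Flt3 was counted in every library. It ran from 22.4 to 91.8 CPM in intact and from 14.4 to 51.4 CPM in null libraries. Cd48 ran from 0 to 19.8 CPM in intact and from 0 to 14.1 CPM in null libraries, and Il7r had a median of 0 CPM in both. Cd3e, a T-cell gene, had no count in 10 of 10 intact and in 8 of 10 null libraries, and its highest null value was 2.52 CPM. Neutrophil and monocyte genes were not absent, and their values are given below beside the results.

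The deleted part of Ezh2, a stretch of 178 bases that the deposited counts list separately from the gene, was checked first. In intact libraries it held 7.48 ± 0.98 counts per 100 Ezh2 counts (SD, n = 10), with a range from 6.02 to 9.272. In null libraries it held 0.048 ± 0.151 (SD, n = 10), and 9 of the 10 had no count in it. The remaining one, Ezh2 -/- batch 2 replicate 2, held 3 counts (0.478%, 95% Wilson interval 0.163 to 1.397%, for counting error only). The two-sided exact permutation p was 1.1e-05, the smallest that 184756 arrangements can give, and no library went against its label. The whole Ezh2 gene stood at 27.8 to 101 CPM, median 58.2, with Ezh2 intact and at 18.6 to 39.3 CPM, median 23.6, without it. Its log2 change was -1.29 ± 0.17 (SE, edgeR adjusted p = 0.00101), with -0.89 without JAK2V617F and -1.55 with it. RNA from the rest of the gene was therefore still counted after the deletion.

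Ezh1 differed by 0.13 ± 0.11 on the log2 scale with an edgeR adjusted p of 0.848, and Jak2 by 0.11 ± 0.12 with one of 0.904. The Jak2 values were -0.14 without and 0.28 with JAK2V617F, and since the kind of JAK2V617F allele is not stated, counts of Jak2 may include reads from it. Of 12 PRC2 genes tested, Ezh2 itself fell and none rose. Their summed level was 1320 to 1710 CPM in intact and 1270 to 1690 CPM in null libraries, so the ranges overlapped nearly in full.

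Ezh2 loss, pooled over both backgrounds in 1 additive model, changed few genes, and most of them rose. Interferon-stimulated genes and the interferon-inducible GTPases made up the largest named group among them. Genes outside that group included the transcription factors Nfia, Tox, Pbx3 and Rorb, the Polycomb gene Bmi1, the imprinted genes Ndn, Sgce and Igf2r, and genes with few counts in intact cells such as Lin28b. Of 14505 genes tested, 66 passed an edgeR adjusted p of 0.05 (0.455%), of which 57 rose (0.393%) and 9 fell (0.062%). The median log2 change was 0.78 among the rises and -1.2 among the falls, and 22 of the 66 changed by more than 1 on the log2 scale. An unadjusted p below 0.05 was reached by 1260 genes (8.69%). The number of calls was 38 with no batch term, 110 by limma-voom and 202 by DESeq2's Wald test. Of the 66, these fits kept 38, 59 and 65, in that order. With a term for batch and replicate number together there were 29 calls, 27 of them among the 66. Clec12a, Sult5a1, Fcgr1, Surf6 and Igll1 were among the genes that limma-voom did not call. The 9 falls dropped to between 2 and 5 in 10 of the 20 fits that left out 1 library, with 2 left without JAK2V617F Ezh2 -/- batch 2 replicate 2.

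All 66 genes had the same sign in both backgrounds, against 52.6% of all tested genes. Both backgrounds enter the pooled effect, so this agreement is partly built into the call and is a description. All 66 had an unadjusted p below 0.05 with JAK2V617F, as had 8.43% of all genes. Without JAK2V617F 47 of the 66 did, and these 47, which pass in each background, are called shared here (40 rose and 7 fell). These 47 are 0.324% of the genes tested. With no pooled call asked for, 123 genes (0.848%) had the same sign and an unadjusted p below 0.05 in both backgrounds.

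Taken alone, the 4 against 4 libraries without JAK2V617F gave 0 genes past the adjusted threshold in edgeR (0.0%), with 876 at an unadjusted p below 0.05 (6.04%), and DESeq2's Wald test gave 38. The 6 against 6 libraries with JAK2V617F gave 95 genes (0.655%). Leaving out 1 library moved that count to 45, 63, 62, 55 or 56 when the library was JAK2V617F batch 1 replicate 1 or 2, JAK2V617F Ezh2 -/- batch 2 replicate 1, JAK2V617F batch 2 replicate 4 or JAK2V617F Ezh2 -/- batch 2 replicate 3, in that order. It was 39 with sex as a term, which is unevenly spread inside the backgrounds. Pooling added 21 calls that the JAK2V617F libraries alone did not give, among them Ifi27, Oasl1, Ly6a, Akr1c12, Clec12a, Sgce, Isg15 and Oas2.

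The change was larger with JAK2V617F in 53 of the 66 genes and larger without it in 13. In the direction of the call, the median log2 change was 0.62 without and 0.95 with JAK2V617F. More libraries with JAK2V617F (6 against 6) than without it (4 against 4) enter the pooled call. A larger change with JAK2V617F among the called genes is therefore partly built in, and these values are a description. The share over all tested genes was not counted. The test of the difference between backgrounds passed an adjusted p of 0.05 for none of the 66 in edgeR or limma-voom and for 3 in DESeq2, and 16 of them had an unadjusted p below 0.05 in edgeR, as had 5.67% of all genes. Over all genes it passed for 4 in edgeR (0.0276%), Hbb-bt and Hbb-b2, whose counts are identical in every library, Ncam2 and Igf2, none of which was called in the pooled comparison. That count was 0 with sex as a term. It was 8 without JAK2V617F batch 1 replicate 1, 7 without JAK2V617F Ezh2 -/- batch 1 replicate 2 and 2 without JAK2V617F Ezh2 -/- batch 2 replicate 3.

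**Figure D1:**
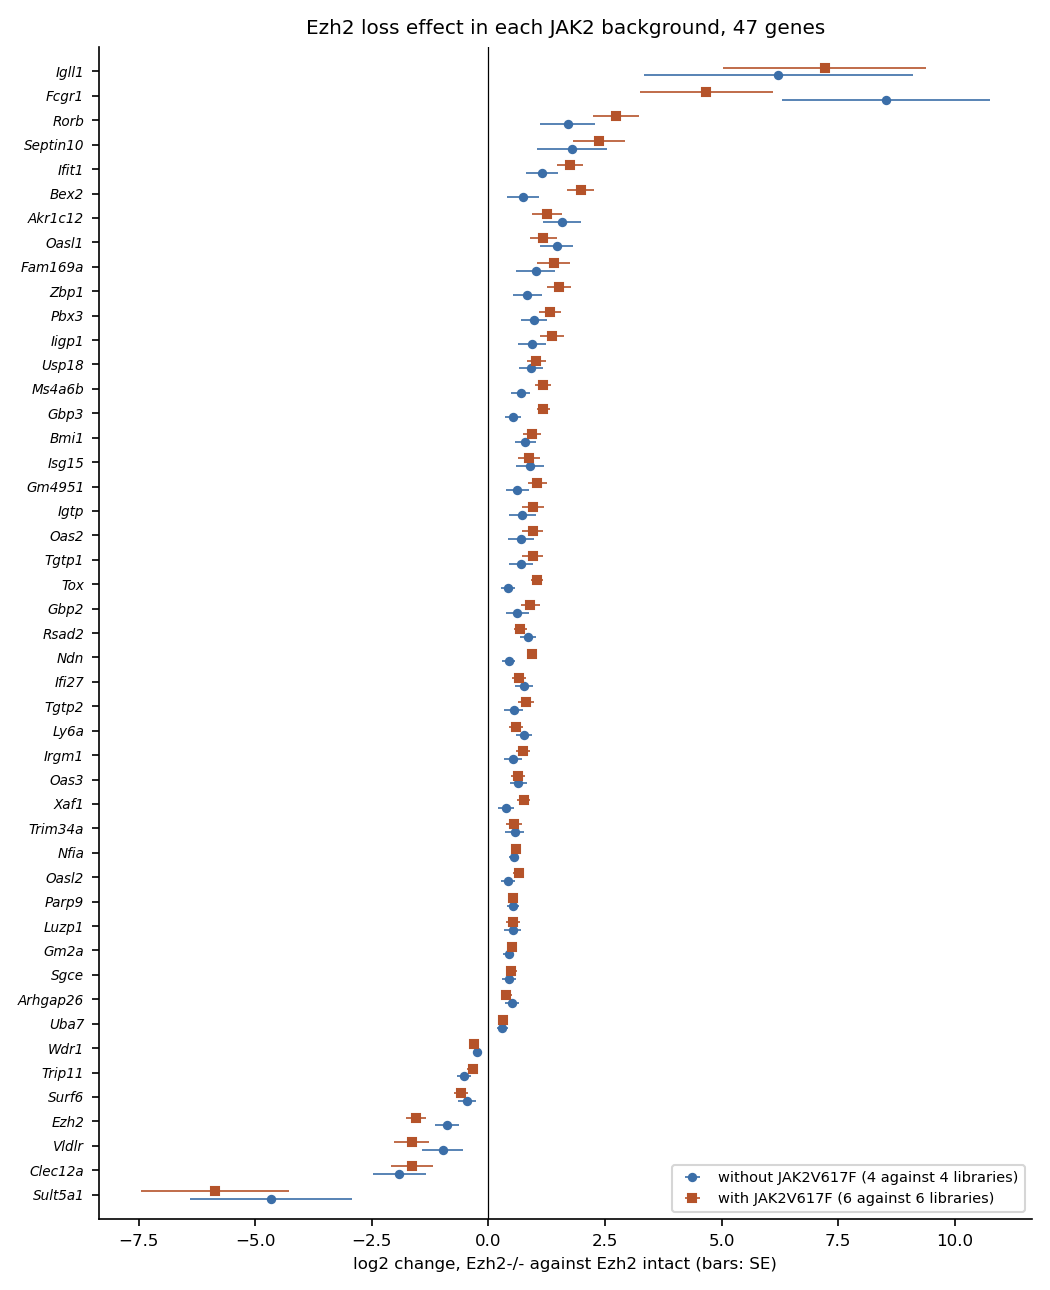
Log2 change (x axis, bars are SE) between null and intact libraries for each of the 47 shared genes (y axis), without JAK2V617F (blue circles, 4 against 4 libraries) and with it (orange squares, 6 against 6). Both points lie on the same side of 0 for every gene, which the choice of shared genes required. The widest bars belong to the low-count genes Igll1, Fcgr1 and Sult5a1.

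The smallest p-value of the comparison belonged to Nfia, a nuclear factor I transcription factor active in blood lineage choice. It stood at 220 to 357 CPM, median 263, in intact and 324 to 498 CPM, median 385, in null libraries. Control and JAK2V617F libraries differed in their starting level, with means of 318 and 247 CPM, and rose to 468 and 364 CPM without Ezh2. The log2 change was 0.56 ± 0.06 (edgeR adjusted p = 5.42e-05), with 0.54 ± 0.10 without JAK2V617F and 0.58 ± 0.08 with it. Inside each background the null libraries all lay above the intact ones.

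Ms4a6b, a membrane protein of the MS4A family, separated the 20 libraries completely. Its intact libraries ran from 18.8 to 32.6 CPM and its null libraries from 33.5 to 77.9 CPM. On the log2 scale the change was 0.98 ± 0.14 (edgeR adjusted p = 0.00103), with 0.69 without and 1.17 with JAK2V617F. Pbx3, a homeodomain partner of Hox proteins, also separated them, with 5.06 to 12.2 CPM against 13.2 to 28.4 CPM. Its log2 change was 1.19 ± 0.17 (edgeR adjusted p = 0.00139). Complete separation of all 10 null from all 10 intact libraries was found in 5 of the 66 called genes (Ms4a6b, Pbx3, Oasl2, Irgm1 and Gbp2) and in 7 of all genes tested (0.0483%), with the null libraries higher in 6 (0.0414%) and lower in 1 (0.00689%). Separation inside both backgrounds, which allows the starting levels to differ, was found in 16 of the 66 and in 21 of all genes (0.145%).

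Pbx3 was placed in the list of Hox A and B genes, although it is a partner of Hox proteins and not a Hox gene. Of 19 tested members of that list, only Pbx3 was called in edgeR (5.26% rose, beside 0.393% over all genes). No Hox A or B gene was therefore called. The median log2 change of the list was 0.02 beside 0.00 over all genes.

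Tox, a nuclear HMG-box factor best known in T cells, stood at 42.2 to 130 CPM in intact and 125 to 165 CPM in null libraries. Its log2 change was 0.79 ± 0.12 (edgeR adjusted p = 0.00139). The JAK2V617F libraries started lower, at a mean of 65.4 CPM against 112 CPM in control, and the null groups reached similar means of 135 and 149 CPM. The change was 1.04 with and 0.41 without JAK2V617F. The difference between backgrounds had an unadjusted p of 0.00485 and an edgeR adjusted p of 0.573.

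Bmi1, a subunit of Polycomb repressive complex 1 (PRC1) and a self-renewal gene of haematopoietic stem cells, rose. It had 10.7 to 34.6 CPM, median 24, with Ezh2 intact and 25.1 to 59.6 CPM, median 40.3, without Ezh2. The log2 change was 0.88 ± 0.14 (edgeR adjusted p = 0.00393), with 0.79 ± 0.23 and 0.94 ± 0.19 in the separate backgrounds. In batch 1 it was 0.91 and in batch 2 it was 0.79. All 4 Ezh2 -/- libraries lay above all 4 control libraries, and 4 of the 6 JAK2V617F Ezh2 -/- libraries lay above every JAK2V617F library. Of 20 PRC1 genes tested, Bmi1 rose in edgeR and none fell (5.0% rose, beside 0.393% over all genes), while DESeq2 called 2. The median of that list was 0.01.

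**Figure D2:**
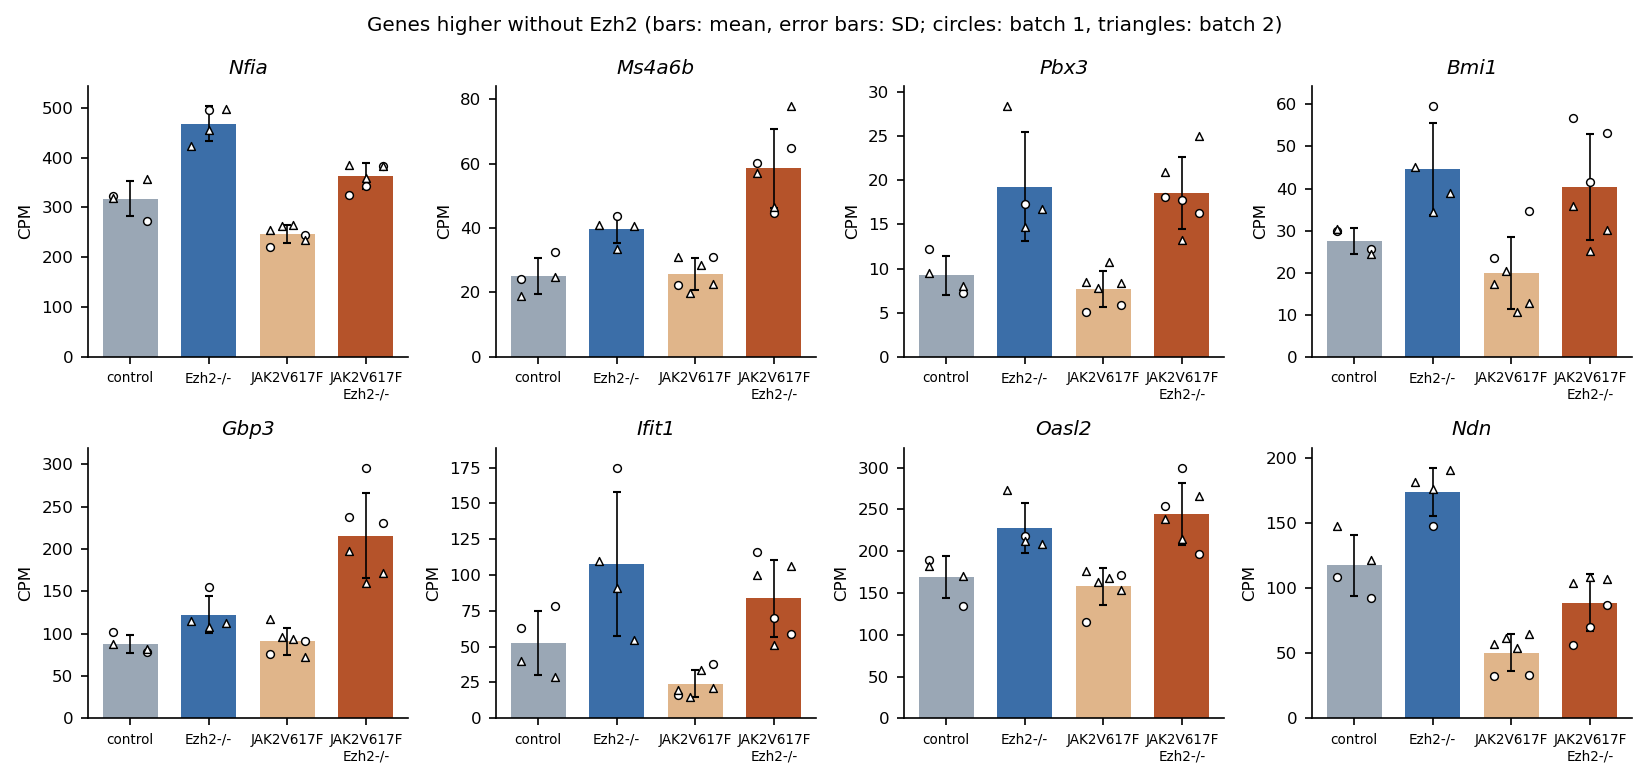
CPM (y axis, from 0) of 8 genes in the 4 genotype groups, with the mean as a bar, the SD as an error bar and each library as a point, circles for batch 1 and triangles for batch 2. The null bar is above its intact partner in both backgrounds for all 8 genes, although Ndn starts from a mean of 118 CPM in control and of 50.5 CPM in JAK2V617F libraries.

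Of 26 imprinted genes tested, 3 rose in edgeR and none fell (11.5% rose, beside 0.393% over all genes), while DESeq2 called 6. Ndn, or necdin, a growth suppressor expressed from the paternal copy, had 32.3 to 148 CPM in intact and 56.5 to 191 CPM in null libraries. Its starting level differed between the backgrounds. Control libraries ran from 92.3 to 148 CPM against 148 to 191 CPM for Ezh2 -/-, and JAK2V617F libraries from 32.3 to 64.9 CPM against 56.5 to 109 CPM for JAK2V617F Ezh2 -/-. The log2 change of Ndn was 0.73 ± 0.10 (edgeR adjusted p = 0.00101). Sgce, a sarcoglycan, rose by 0.47 ± 0.09 (edgeR adjusted p = 0.0187), and its changes were almost equal, at 0.44 and 0.49. Igf2r, the receptor that clears insulin-like growth factor 2, rose by 0.62 ± 0.12 (edgeR adjusted p = 0.017), with 0.27 without JAK2V617F (unadjusted p = 0.13) and 0.86 with it, so it was not among the shared genes. The median of the imprinted list was 0.16.

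The interferon-stimulated list was written from general knowledge with earlier results of these data known. Of its 50 members, all of them tested, 16 rose and none fell, or 32% beside 0.393% over all genes. Its median log2 change was 0.47, with 0.35 without and 0.54 with JAK2V617F, and 49 of the 50 were positive. Of 18 guanylate-binding and immunity-related GTPases, which are interferon-inducible proteins that attack the vacuoles of intracellular pathogens, 8 rose and none fell, with a median of 0.85 (0.53 and 0.95 in the separate backgrounds). Of 25 MHC class I genes, which present antigen and are also interferon-inducible, none passed the threshold in edgeR. DESeq2 called 1 and limma-voom 1. At an unadjusted p below 0.05 in edgeR 11 of the 25 were higher, as were 680 of all 14505 tested genes. The median of the 25 was 0.14. Over these lists together 24 of 93 genes rose, 20 of them shared. Of the 93, 86 were positive, as were 7268 of all 14505 tested genes.

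Ifit1, an antiviral protein that binds foreign RNA caps, had the largest shared rise in the interferon-stimulated list. Intact libraries ran from 14.9 to 78.4 CPM, median 31.4, and null libraries from 51.5 to 175 CPM, median 95.3. The JAK2V617F libraries were lowest, at 14.9 to 38.1 CPM, and their Ezh2 -/- counterparts lay at 51.5 to 116 CPM with no overlap. On the log2 scale the change was 1.51 ± 0.22 (edgeR adjusted p = 0.00139), with 1.15 ± 0.34 without and 1.75 ± 0.28 with JAK2V617F.

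Rsad2, or viperin, which makes an antiviral nucleotide, rose a little more without JAK2V617F. Control libraries ran from 37.5 to 48.0 CPM and Ezh2 -/- libraries from 69.0 to 83.1 CPM. With JAK2V617F the ranges were 25.8 to 41.8 CPM and 42.6 to 65.8 CPM. There was no overlap in either background, and the log2 changes were 0.85 ± 0.17 and 0.68 ± 0.14 (pooled 0.75 ± 0.11, edgeR adjusted p = 0.00137).

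Parp9, an ADP-ribosyltransferase partner that strengthens interferon signalling, changed by the same 0.53 in both backgrounds (edgeR adjusted p = 0.00188). Its 10 intact libraries lay between 65.0 and 98.0 CPM and 9 of its 10 null libraries lay above them. Oasl1, an oligoadenylate synthetase-like protein, rose by 1.30 ± 0.22 (edgeR adjusted p = 0.00438), from 4.97 to 12.2 CPM in intact to 12.1 to 52.0 CPM in null libraries. Oasl2 rose by 0.55 ± 0.10 with no overlap between 115 to 190 CPM and 196 to 300 CPM. Usp18, the protease that removes the ubiquitin-like modifier Isg15, rose by 0.98 ± 0.16, and Isg15 itself by 0.88 ± 0.18 (edgeR adjusted p = 0.00393 and 0.0295). Isg15 lost its call in 10 of the 20 fits that left out 1 library, with the highest edgeR adjusted p of 0.0747 without JAK2V617F Ezh2 -/- batch 2 replicate 1. Reads of the Oas, Gbp and Tgtp families can be shared between near-identical copies, so values of single members of these families are uncertain.

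Gbp3 had the smallest p-value among the GTPases. Intact libraries ran from 72.4 to 117 CPM in both backgrounds, with means of 87.3 CPM in control and 91.1 CPM with JAK2V617F. Without Ezh2 the means were 122 CPM and 216 CPM. The log2 change was 0.91 ± 0.12 (edgeR adjusted p = 0.00101), with 0.53 and 1.18 in the separate backgrounds. The difference between them had an unadjusted p of 0.00805 and an edgeR adjusted p of 0.631.

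Gbp7 showed a wider gap. Its means were 443 CPM in control, 500 CPM in Ezh2 -/-, 422 CPM in JAK2V617F and 851 CPM in JAK2V617F Ezh2 -/- libraries. On the log2 scale the change was 0.25 ± 0.13 without JAK2V617F (unadjusted p = 0.075) and 0.95 ± 0.11 with it, and the test of the difference gave an edgeR adjusted p of 0.284. Gbp7 therefore rose in the pooled comparison (0.67 ± 0.11, edgeR adjusted p = 0.00393) without being shared.

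Iigp1, an immunity-related GTPase, rose by 1.19 ± 0.19 (edgeR adjusted p = 0.00375). Intact libraries ran from 99.2 to 208 CPM and null libraries from 198 to 1130 CPM. The library at 1130 CPM, JAK2V617F Ezh2 -/- batch 1 replicate 2, was also the highest for Gbp2 at 510 CPM, Gbp3 at 296 CPM, Gbp7 at 1180 CPM, Igtp at 463 CPM, Irgm1 at 521 CPM, Tgtp1 at 115 CPM and Tgtp2 at 357 CPM. Summed over the 18 GTPases, intact libraries lay between 1350 and 1830 CPM, and null libraries between 1810 and 5750 CPM with a median of 2520 CPM. With that library left out the pooled comparison gave 67 calls. Of the original 66, 54 were among them.

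Promoters of the rising genes were read for 2 short motifs, because these genes move together. The windows ran from 250 bases before to 50 bases after the gene start in RefSeq (GRCm38.p6), and 40 of the 57 rising and 9 of the 9 falling genes had an entry. The core of the interferon-stimulated response element, GAAA and again GAAA with any 2 bases between them on either strand, was found in the promoters of 14 of the 40 rising genes (35%), against 428 of 11383 tested genes (3.76%). It was present in 12 of 16 rising genes from the interferon-linked lists (75.0%), in 2 of 24 rising genes outside them (8.33%, Ifi203 and Trim34a), in 19 of 50 genes of those lists that were not called (38.0%), and in 1 of 9 falling genes. The gamma-activated site TTCNNNGAA, which reads the same on both strands, was in 8 of 40 rising genes, against 8.24% of tested genes. The 2 motifs can overlap in the letters GAA. Rising genes had a median of 5 CG pairs per promoter, all tested genes 19 and falling genes 21. These are letter matches and no measure of binding.

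The matches of 7 rising genes are printed to show the core in both orientations. Read from GAAA, the inner letters are the same, CT, in Ifit1, Gbp3, Tgtp1 and Igtp, and they differ in Rsad2, Isg15 and Gbp2. The match is in capitals and the strand is that of the gene, so a match beginning with TTTC is the core on the opposite strand. The windows are Ifit1 on the plus strand at chr19:34640789-34640828, Rsad2 on the minus strand at chr12:26456548-26456587, Isg15 on the minus strand at chr4:156200866-156200905, Gbp3 on the plus strand at chr3:142559984-142560023, Gbp2 on the plus strand at chr3:142620589-142620628, Tgtp1 on the minus strand at chr11:48992299-48992338 and Igtp on the plus strand at chr11:58199507-58199546.
Ifit1: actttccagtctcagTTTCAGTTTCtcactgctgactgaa
Rsad2: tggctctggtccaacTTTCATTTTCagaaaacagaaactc
Isg15: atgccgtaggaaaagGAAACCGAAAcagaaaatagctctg
Gbp3: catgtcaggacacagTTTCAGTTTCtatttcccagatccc
Gbp2: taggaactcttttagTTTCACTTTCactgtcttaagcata
Tgtp1: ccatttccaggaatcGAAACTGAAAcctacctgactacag
Igtp: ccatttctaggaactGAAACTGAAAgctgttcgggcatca
Ifit1 holds another match 19 bases further upstream, starting 104 bases before the gene start, and the printed one starts 85 bases before it. In Gbp3 the printed match starts 45 bases and in Igtp 34 bases before the start. Gbp3 holds another that starts 39 bases before the start, and Isg15 holds others that start 78 and 66 bases before it.

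Some rising genes had low levels with Ezh2 intact. Rorb, a retinoid-related orphan receptor best known in retina and brain, ran from 1.18 to 15.5 CPM, median 4.74, in intact and from 10.4 to 40.1 CPM, median 21.8, in null libraries. Its log2 change was 2.33 ± 0.39 (edgeR adjusted p = 0.00438), with 1.70 without and 2.74 with JAK2V617F. Inside each background the null libraries lay above every intact one. Bex2, an X-linked gene of the brain-expressed family, rose by 1.47 ± 0.25 (edgeR adjusted p = 0.00529) from 2.41 to 11.7 CPM to 10.3 to 25.4 CPM. Akr1c12, an aldo-keto reductase with the close copy Akr1c13, rose by 1.39 ± 0.24 (edgeR adjusted p = 0.00534). Its means were 1.79 and 5.52 CPM without JAK2V617F and 9.32 and 21.7 CPM with it, so the starting level was higher with JAK2V617F and the log2 changes were 1.58 and 1.26.

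Lin28b, the fetal RNA-binding protein that blocks let-7 maturation, was called in the pooled comparison with most of its counts in 1 background. It passed the low-count filter through null libraries, so only a rise could be called. The 6 JAK2V617F Ezh2 -/- libraries held 2.55 to 12.2 CPM (1262 counts), and the 6 JAK2V617F libraries held 2 counts in all, both in 1 library. Without JAK2V617F the ranges overlapped, with 0 to 1.02 CPM in control (43 counts) and 0.555 to 3.10 CPM in Ezh2 -/- libraries (170 counts). The pooled log2 change was 5.78 ± 1.14 (edgeR adjusted p = 0.0182), and it was 2.18 ± 1.09 (unadjusted p = 0.0584) without JAK2V617F. The difference between backgrounds had an edgeR adjusted p of 0.252. Without JAK2V617F batch 2 replicate 3 the pooled adjusted p was 0.0516.

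Mab21l2, a developmental regulator of eye and body wall, had the same shape. Control, Ezh2 -/- and JAK2V617F libraries had means of 1.33, 3.30 and 2.54 CPM, and JAK2V617F Ezh2 -/- libraries ran from 37.0 to 123 CPM. The log2 change was 3.69 ± 0.67 (edgeR adjusted p = 0.00987), with 1.44 ± 0.75 (unadjusted p = 0.0693) without and 4.86 ± 0.64 with JAK2V617F, and the test of the difference gave an edgeR adjusted p of 0.454. Of 56 developmental regulators listed, 45 were in the counts and only 8 had enough counts to be tested, and Mab21l2 was the 1 that rose. A gene could pass that filter through the null libraries alone, so the 8 are not a sample of the list. Septin10, a septin, rose by 2.17 ± 0.44 (edgeR adjusted p = 0.0207), and 1 control library (5.65 CPM) lay above 3 of the 4 Ezh2 -/- libraries. Its call was lost in 2 of the 20 fits without 1 library, with an edgeR adjusted p of 0.0648 without JAK2V617F Ezh2 -/- batch 1 replicate 1.

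**Figure D3:**
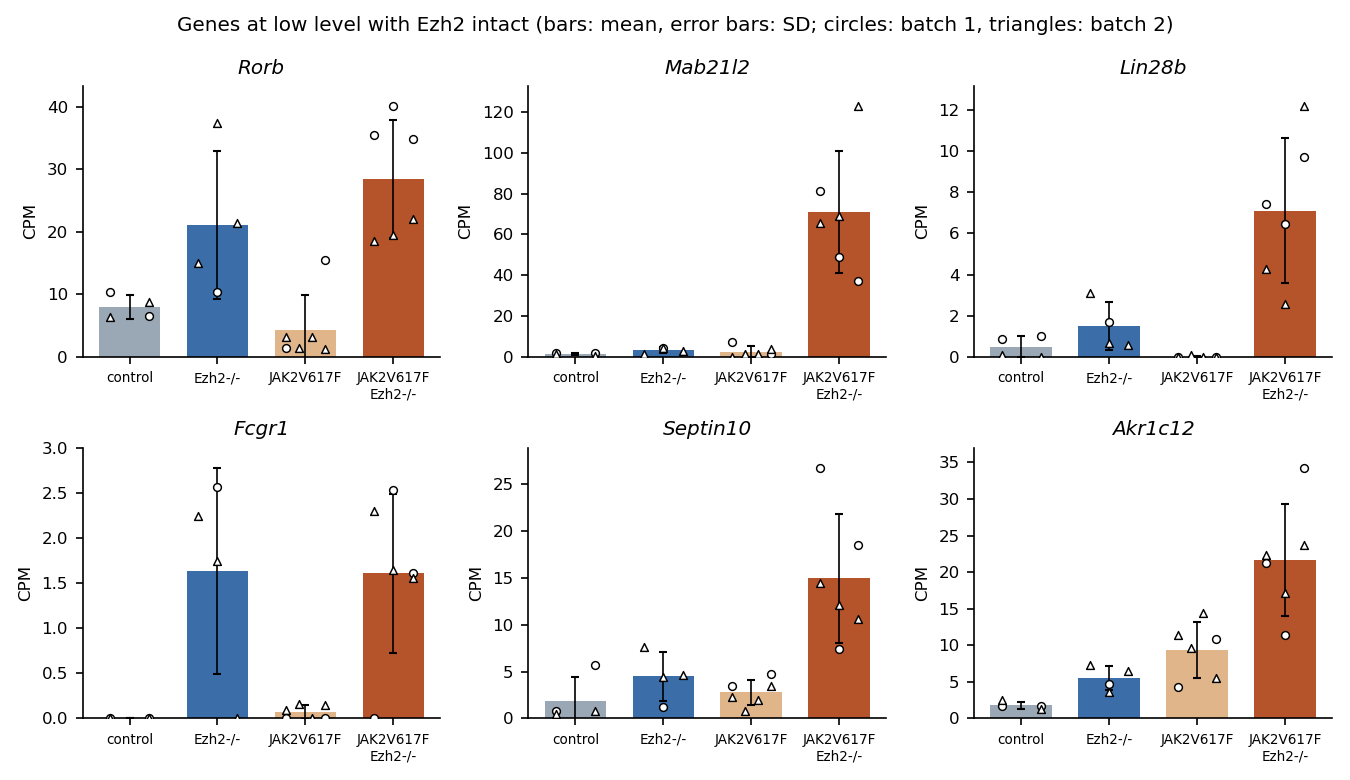
CPM (y axis, from 0) of 6 genes that were low in intact libraries, by genotype group, with mean (bar), SD (error bar) and each library (circles batch 1, triangles batch 2). Rorb and Fcgr1 are raised in both null groups, whereas Lin28b and Mab21l2 reach 2.55 CPM and 37.0 CPM or more only in the 6 JAK2V617F Ezh2 -/- libraries, apart from 1 Ezh2 -/- library with 3.10 CPM of Lin28b.

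Fcgr1, the high-affinity IgG receptor of monocytes and macrophages, was at 0 in all 4 control libraries and in 3 of 6 JAK2V617F libraries, the highest intact value being 0.162 CPM. Null libraries ran from 0 to 2.57 CPM, and 8 of the 10 held counts. In total there were 496 counts against 13, a ratio of 33.4 with a counting interval of 19.3 to 63.1. That interval is for counting error only and leaves out the spread between libraries. Fcgr1 passed the low-count filter through null libraries, so only a rise could be called. The fitted log2 change was 5.62 ± 1.16 (edgeR adjusted p = 0.0281). The call was lost in 5 of the 20 fits without 1 library, with an edgeR adjusted p of 0.0577 without control batch 1 replicate 2. Limma-voom gave Fcgr1 an adjusted p of 0.0853.

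Fcgr1 moved against the list it belongs to. Of 29 neutrophil and monocyte genes tested, Fcgr1 rose and none fell (3.45% rose, beside 0.393% over all genes). In both backgrounds 17 of the 29 were negative, as were 3896 of all 14505 tested genes. The median of the 29 was -0.80 (-1.11 without and -0.57 with JAK2V617F). Their summed level was 2340 to 20500 CPM, median 6250, in intact and 1090 to 8570 CPM, median 3730, in null libraries. Mpo, the neutrophil myeloperoxidase, ran from 42.0 to 2300 CPM in intact and 18.8 to 1100 CPM in null libraries, and its log2 change of -1.57 had an edgeR adjusted p of 0.47. In bulk RNA fewer cells of a type and less RNA per cell cannot be told apart, and the part of these genes in the other results was not tested. Igll1, a component of the pre-B-cell receptor, was the last gene past the threshold (edgeR adjusted p = 0.0487). It held counts in 4 of 10 null libraries and in 1 of 10 intact libraries. There were 276 counts against 1, a ratio of 241 with an interval of 43.0 to 9570 for counting error only. Igll1 also passed the low-count filter through null libraries, so only a rise could be called. Its call was lost in 11 of the 20 fits without 1 library, with an edgeR adjusted p up to 0.246 without JAK2V617F batch 2 replicate 1. DESeq2 and limma-voom did not call it, with adjusted p-values of 0.383 and 0.462. Without JAK2V617F 1 of the 4 Ezh2 -/- libraries held all 68 counts, so its place among the shared genes rests on that library. The call of Igll1 therefore rests on few libraries.

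The genes that fell were fewer and their calls moved more with single libraries. Vldlr, the very low density lipoprotein receptor, ran from 35.9 to 93.6 CPM, median 42.7, in intact and 5.55 to 45.4 CPM, median 18, in null libraries. Of the null libraries, 9 lay below every intact one. On the log2 scale the change was -1.37 ± 0.29 (edgeR adjusted p = 0.0288), with -0.98 without and -1.65 with JAK2V617F. In batch 1 the change was -0.77 and in batch 2 it was -1.84, and the call was lost in 5 of the 20 fits without 1 library, with an edgeR adjusted p of 0.0583 without JAK2V617F Ezh2 -/- batch 2 replicate 2.

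Clec12a, an inhibitory C-type lectin of myeloid cells, had a log2 change of -1.75 ± 0.35 and fell with an edgeR adjusted p of 0.0185. It had 7.77 to 105 CPM, median 34.7, in intact and 3.90 to 26.5 CPM, median 8.26, in null libraries. The groups overlapped in both backgrounds. The summed neutrophil and monocyte level, given above, had its lower median in null libraries, and its part in the change of Clec12a was not tested. The edgeR adjusted p of Clec12a was 0.0577 without JAK2V617F batch 2 replicate 4. Limma-voom gave it an adjusted p of 0.107.

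Sult5a1, a sulfotransferase, had counts in 8 of 10 intact libraries and in 3 of 10 null libraries, with 248 counts against 14. The ratio was 0.0494 with an interval of 0.0266 to 0.0845 for counting error only. The fitted log2 change was -5.28 ± 1.14 (edgeR adjusted p = 0.0353). Sult5a1 passed the low-count filter through intact libraries, so only a fall could be called. Smaller falls at higher level were those of Trip11, a Golgi coiled-coil protein (-0.42 ± 0.09, edgeR adjusted p = 0.0399), Surf6, a nucleolar protein (-0.53 ± 0.12, edgeR adjusted p = 0.0405), and Wdr1, an actin-disassembly factor (-0.27 ± 0.06, edgeR adjusted p = 0.0405). The last 3 lost their calls in 14, 15 and 17 of the 20 fits without 1 library. Their highest edgeR adjusted p-values were 0.0798 without JAK2V617F batch 2 replicate 4, 0.103 without JAK2V617F batch 2 replicate 2 and 0.0922 without JAK2V617F batch 1 replicate 2. For Sult5a1 the call was lost in 13 fits, with 0.0799 without control batch 1 replicate 1. Limma-voom gave adjusted p-values of 0.102 for Sult5a1 and 0.0524 for Surf6.

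**Figure D4:**
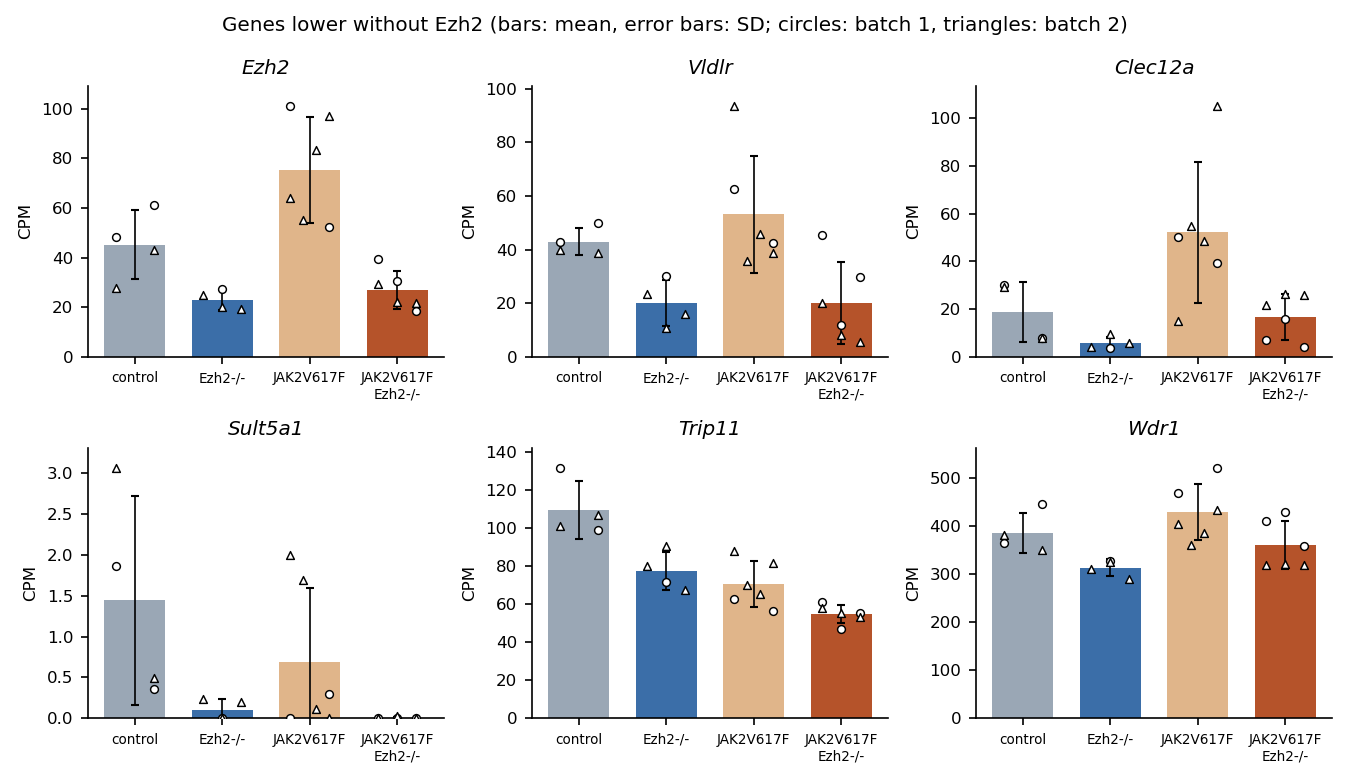
CPM (y axis, from 0) of 6 genes that fell, by genotype group, with mean (bar), SD (error bar) and each library (circles batch 1, triangles batch 2). Ezh2 drops to means of 23 and 26.9 CPM, Vldlr to 20.2 and 20.1 CPM, and the Clec12a points of null and intact libraries overlap.

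The 19 genes called in the pooled comparison but not shared (17 rose and 2 fell) had an unadjusted p of 0.05 or more without JAK2V617F. Gem, a small GTPase that restrains calcium channels, had means of 65.9 CPM in control and 99.8 CPM in Ezh2 -/- libraries, and of 23.6 CPM and 68.5 CPM with JAK2V617F. Its log2 change was 0.30 ± 0.26 without and 1.59 ± 0.21 with JAK2V617F (edgeR adjusted p of the difference 0.37). In batch 2 libraries Gem ran higher than in batch 1 within every group, for example 76.3 and 103 CPM against 31.9 and 52.1 CPM in control.

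Cux1, a homeodomain transcription factor with tumour-suppressor function in myeloid cells, showed its fall with JAK2V617F. Control and Ezh2 -/- libraries had means of 367 and 349 CPM, and JAK2V617F and JAK2V617F Ezh2 -/- libraries 517 and 380 CPM. All 6 JAK2V617F Ezh2 -/- libraries lay below all 6 JAK2V617F libraries, the ranges being 364 to 403 CPM and 475 to 587 CPM. The pooled log2 change was -0.29 ± 0.06 (edgeR adjusted p = 0.0353), with -0.08 ± 0.09 without and -0.43 ± 0.07 with JAK2V617F, and the edgeR adjusted p of the difference was 0.585. The pooled call of Cux1 was lost in 13 of the 20 fits without 1 library, with an edgeR adjusted p of 0.0815 without JAK2V617F batch 2 replicate 2. Gstm2, a glutathione transferase, was the other fall that was not shared (-1.2 ± 0.26, edgeR adjusted p = 0.0405), and its call was lost in 17 such fits, with 0.0968 without control batch 2 replicate 4.

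Ly6a, which encodes the stem-cell surface marker Sca-1 and is itself interferon-inducible, rose by 0.66 ± 0.11 (edgeR adjusted p = 0.00447), from 114 to 223 CPM in intact to 182 to 345 CPM in null libraries. The change was 0.76 without and 0.59 with JAK2V617F, and 1.01 in batch 1 against 0.43 in batch 2. Of 48 tested genes of the stem-cell signature, Ly6a and Ndn rose in edgeR and none fell (4.17% rose, beside 0.393% over all genes). DESeq2 called 5 and limma-voom 2 of the 48. Ly6a is also in the interferon-stimulated list and Ndn in the imprinted list, so these calls are counted there as well. The median of the stem-cell signature was 0.08. Gm2a, the GM2 ganglioside activator of the lysosome, rose by 0.47 ± 0.07 (edgeR adjusted p = 0.00295) with a nearly equal change in the backgrounds (0.43 and 0.50).

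Other lists had no member past the threshold in edgeR. None of 50 proliferation genes was called (median -0.02), none of 16 CDK inhibitors and G1 cyclins (median 0.06), none of 30 immediate-early genes (median 0.00), none of 24 JAK-STAT targets (median 0.16), none of 26 megakaryocyte and platelet genes (median -0.07) and none of 30 mitochondrial electron transport genes (median 0.00). At unadjusted p below 0.05, 1 proliferation gene, 3 CDK inhibitors and cyclins, 6 immediate-early genes, 3 JAK-STAT targets, 3 megakaryocyte genes and 0 mitochondrial genes were found by edgeR, where 8.69% of all genes reached that level. DESeq2 called 1 CDK inhibitor or cyclin and 2 megakaryocyte genes, limma-voom called 1 immediate-early and 1 megakaryocyte gene, and neither called a member of the proliferation, JAK-STAT or mitochondrial lists. The immediate-early median of 0.00 joined opposite signs, 0.57 without and -0.38 with JAK2V617F. Their summed level had means of 14900 CPM in control and 24900 CPM in Ezh2 -/- libraries, and of 29100 and 18900 CPM in the JAK2V617F pair, and the difference was not tested for the list. Of 24 globin and erythroid genes (median -0.12) edgeR called none, DESeq2 called 2 and limma-voom 3, and at an unadjusted p below 0.05 in edgeR 3 were higher and 6 lower. Summed proliferation genes ran from 1930 to 7220 CPM in intact and from 2140 to 8030 CPM in null libraries.

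**Figure D5:**
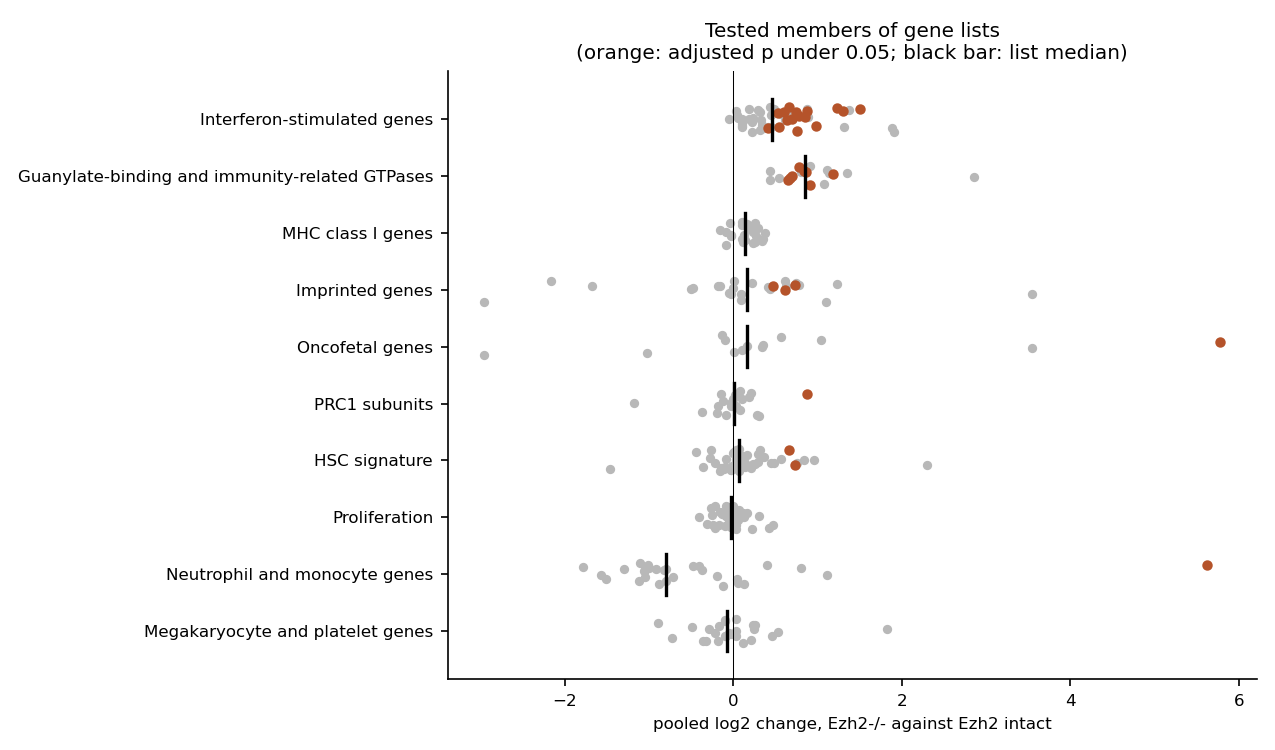
Pooled log2 change between null and intact libraries (x axis) of every tested member of 10 gene lists (y axis), orange where the adjusted p was under 0.05, with the list median as a black bar. The medians of the interferon-stimulated and GTPase lists sit at 0.47 and 0.85, those of the proliferation and megakaryocyte lists at -0.02 and -0.07, and the neutrophil and monocyte list at -0.80.

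All 66 called genes kept their direction in batch 1 alone and in batch 2 alone, where the 8 and 12 libraries gave 0 and 15 calls. The call itself was kept in every one of the 20 fits without 1 library by 37 of the 66. Adding sex to the terms gave 76 calls, 65 of the 66 among them, the exception being Igll1.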

How the data were processed

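RNA-seq libraries of 20 LT-HSC samples were analysed. The deposited values are raw read counts per Entrez gene, per the file headers. The same files hold a gene length in bases, which the authors deposited beside the counts and which was used only for the length of the separately counted part of Ezh2. STAR and the mouse build mm9 were used upstream, per the submitters' processing notes. The aligner version, counting tool, gene models and strand setting were not given in the sources used here. Counts of overlapping or antisense genes therefore cannot be told apart.

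From 19138 genes the part of Ezh2 was kept apart. Symbols came from RefSeq for 19075 genes. Groups, batch and sex came from the labels. Counts were fitted with edgeR 4.0.16 (R 4.3.3) by quasi-likelihood with TMM factors (0.936 to 1.061), after filterByExpr removed 4633 genes. The pooled model had terms for Ezh2, JAK2V617F and batch and 16 residual degrees of freedom. A second fit with 1 term per genotype group and batch gave each background's effect and their difference. P-values were adjusted by Benjamini-Hochberg over 14505 genes. The SE was taken as the absolute log2 change over the root of the F statistic. CPM are TMM-normalised. Totals were 20022714 to 48557175 counts, and no 2 libraries held identical counts. On simulated counts for 14299 genes, the pooled test recovered 25% of genes changed by 1 on the log2 scale. It recovered 100% of those changed by 2, and 2 of its 127 calls were unchanged genes. Every simulated gene had the same biological coefficient of variation (0.507), with no batch or JAK2V617F difference. These shares therefore do not give the sensitivity for genes of another spread.

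Named genes were Ezh2, Ezh1, Jak2, the 12 smallest p-values among shared rises and falls each, the 6 largest of each whose mean log2 CPM reached 1, and up to 3 called members of each list, leaving out predicted and sex-linked genes. Other called genes were named after their values were seen. The members and lists were chosen with earlier results of these data known. Alternatives were DESeq2 1.42.0 size factors and Wald test, limma-voom (limma 3.58.1), no filter, no batch term, sex, a replicate block, all 35 libraries, equal weight to both backgrounds, each batch, females alone and each library left out.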

Additional observations from a re-analysis of the deposited data

Results flagged for a closer look

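Each named gene was examined in each of the 4 genotype groups, 134 pairs in all, for a library set apart from the others of its group by Dixon's criterion. It met this in 9 pairs, and chance gives about 5%. Gbp3 stood at 155 CPM in Ezh2 -/- batch 1 replicate 1, above the others at 108 to 115 CPM. Iigp1 stood at 1130 CPM in JAK2V617F Ezh2 -/- batch 1 replicate 2, above 206 to 466 CPM. Rorb stood at 15.5 CPM in JAK2V617F batch 1 replicate 2, above 1.18 to 3.1 CPM, and Septin10 at 5.65 CPM in control batch 1 replicate 2, above 0.419 to 0.763 CPM. Sgce was low, at 53.4 CPM, in Ezh2 -/- batch 2 replicate 2, below 67.4 to 69.3 CPM. The same library held 2.19 CPM of Igll1, which had no count in the others of its group. In the remaining pairs 1 library held traces where the others held none, with 0.0287 CPM of Sult5a1 in JAK2V617F Ezh2 -/- batch 2 replicate 2, 0.065 CPM of Lin28b in JAK2V617F batch 2 replicate 2 and 0.0323 CPM of Igll1 in JAK2V617F batch 2 replicate 1.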

How the results depend on the processing

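The pooled comparison gave 66 calls (57 higher, 9 lower, 47 shared), with 0 genes without JAK2V617F, 95 with it and 4 for the difference. All 66 kept their direction under every other model, tool, filter, batch or sex setting listed here, and all that were still tested did so in the fits without 1 library. DESeq2 size factors moved no count by over 1.5 times. With no filter there were 5 lower, 1 gene without JAK2V617F and 9 for the difference. DESeq2's Wald test gave 202 calls (146 higher, 56 lower, 101 shared), with 38, 217 and 49 for the other comparisons. Limma-voom gave 110 (92 higher, 18 lower) and 0 for the difference. With sex as a term 39 genes passed with JAK2V617F and 0 for the difference. With no batch term there were 38 calls (37 higher, 1 lower, 30 shared) and 59 with JAK2V617F. All 35 libraries gave 1 gene without JAK2V617F and 2 for the difference.

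The replicate block gave 29 calls (26 higher, 3 lower, 27 shared), 51 with JAK2V617F and 2 for the difference. The labels do not say whether equal replicate numbers pair the libraries. Deviations of the 22 same-numbered pairs had a median correlation of -0.07 (from -0.24 to 0.15, 1 pair over 0.1), against -0.09 for the other 54 pairs. These deviations are what was left after group and batch means were fitted to small groups, so they cannot settle whether the libraries were paired.

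Batch 1 alone gave 0 calls (0 higher, 0 lower, 0 shared), 2 without and 0 with JAK2V617F and 2 for the difference. Batch 2 alone gave 15 (14 higher, 1 lower, 15 shared), 40 with JAK2V617F and 0 for the difference. Females alone gave 0 (0 higher, 0 lower, 0 shared), 5 with JAK2V617F and 0 for the difference. Leaving out 1 library gave 45 to 69 calls, 41 to 62 higher, 2 to 9 lower, 34 to 50 shared, 0 to 3 without JAK2V617F, 45 to 117 with it and 2 to 8 for the difference. Ezh1 turned to -0.06 in batch 1 alone and Jak2 to -0.04 in batch 2 alone, on the log2 scale. The causes were not tested. On counts simulated with 1 common spread for every gene, changes of 1 on the log2 scale were often missed. Real genes differ in spread, and Nfia was called at 0.56 ± 0.06, so that share does not give the sensitivity for single genes.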
